A study of Neurospora crassa with 20 samples.

Results

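The comparison described here is the effect of deleting kmt1/dim-5 on histone H3 lysine 4 trimethylation (H3K4me3) in Neurospora crassa exposed to light. It uses 4 of the 20 samples of the series, 2 Δkmt1/Δdim-5 samples (labelled dim5) and 2 WT samples, and the members are the 4819 Δkmt1/Δdim-5 and 4537 WT H3K4me3 peaks called on chromosomes I to VII. Mycelia of both strains were grown in liquid culture for 24 h in the light and 24 h in the dark and were harvested after 30 min of renewed light (LP30). The mutant is a backcrossed knockout strain. Chromatin was precipitated with an H3K4me3 antibody and sequenced, and the 2 samples of each strain were pooled into 1 narrow-peak list. The lists of the same strains harvested in the dark (DD) were called in the same way, and the background of all 4 lists is the H3K4me3 ChIP of Δkmt2/Δset-1 in the dark, a strain without the H3K4 methyltransferase. Because each strain has 1 pooled list, the spread between replicates is unknown, and no difference below was tested against it.

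KMT1/DIM-5 is the histone H3 lysine 9 methyltransferase of Neurospora. Its product, H3K9me3, covers the AT-rich remnants of mutated transposons that make up constitutive heterochromatin, is bound by HP1 and directs DNA methylation. H3K4me3 is laid down by KMT2/SET-1, mostly over active genes, and the light response of this fungus is driven by the White Collar complex of WC-1 and WC-2, which activates genes such as frq, vvd and the carotenoid genes.

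The deleted genes were examined first. At dim-5 itself (NCU04402, chromosome IV, 3480589 to 3482273 in the NC12 assembly) no peak was called in Δkmt1/Δdim-5, whereas WT had a peak of 1046 bp with a fold enrichment of 1.5, which is the ratio of ChIP to background at the summit, the most enriched base of a peak. At set-1 (NCU01206, chromosome V), which the background strain lacks, the peak was 5850 bp wide with a fold enrichment of 5.10 in Δkmt1/Δdim-5 and 5842 bp with 5.21 in WT. The peaks covered 7.09 Mb in Δkmt1/Δdim-5 and 6.44 Mb in WT, with a median width of 1440 bp and 1384 bp and a median fold enrichment of 1.60 and 1.64. The caller's q-value was under 0.01 for 90.7% of the Δkmt1/Δdim-5 peaks and 92.3% of the WT peaks. The lists were normalized separately. At 602 pairs of peaks whose summits lay within 20 bp of each other, however, the background pileup in the Δkmt1/Δdim-5 list was 0.999 times that in the WT list (median), so both lists stood on nearly the same scale.

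Most peaks were shared. Counting any overlap of 1 bp as a match, 4245 Δkmt1/Δdim-5 peaks met 4314 WT peaks, and 574 of 4819 Δkmt1/Δdim-5 peaks (11.9%) had no WT counterpart and are called gained. In turn, 223 of 4537 WT peaks (4.92%) had no Δkmt1/Δdim-5 counterpart and are called lost. Gained and lost peaks were short and weak. Gained peaks had a median width of 334 bp, a median fold enrichment of 1.20 and a highest value of 1.72, and 47.4% of them had a q under 0.01. Lost peaks had a median width of 303 bp, a median fold enrichment of 1.21 and a highest value of 3.92, and 45.7% of them had a q under 0.01. The matched peaks of Δkmt1/Δdim-5 had a median width of 1539 bp and those of WT 1421 bp. With a q under 0.01 in the list that holds the peak, 272 gained and 102 lost peaks remained. When peaks with a fold enrichment under 1.5 were dropped from each list before matching, 285 were gained and 335 lost, so losses then exceeded gains. Some unmatched peaks were near misses, since 125 gained and 50 lost peaks lay within 500 bp of a peak of the other strain.

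The share of unmatched peaks varied more with width than with chromosome. Of the Δkmt1/Δdim-5 peaks under 500 bp, 414 of 623 (66.5%) were gained, and of the WT peaks of that width 170 of 489 (34.8%) were lost. Between 500 and 1000 bp the shares were 19.0% gained (121 of 636) and 6.63% lost (44 of 664). Between 1000 and 2000 bp they were 1.48% gained (37 of 2502) and 0.308% lost (8 of 2597). At 2000 bp or more, 2 of 1058 Δkmt1/Δdim-5 peaks were gained and 1 of 787 WT peaks was lost. Gains outnumbered losses on all 7 chromosomes. The gained share ran between 8.55% on chromosome V and 17.7% on chromosome VI, and the lost share between 3.49% on chromosome I and 6.94% on chromosome VII. Chromosome V had 67 gained and 38 lost peaks, the lowest ratio, and chromosome VI 81 and 24, the highest, but with a q under 0.01 the ratio was highest on chromosome II, with 30 gained and 7 lost against 41 and 12 on chromosome VI.

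**Figure D1:**
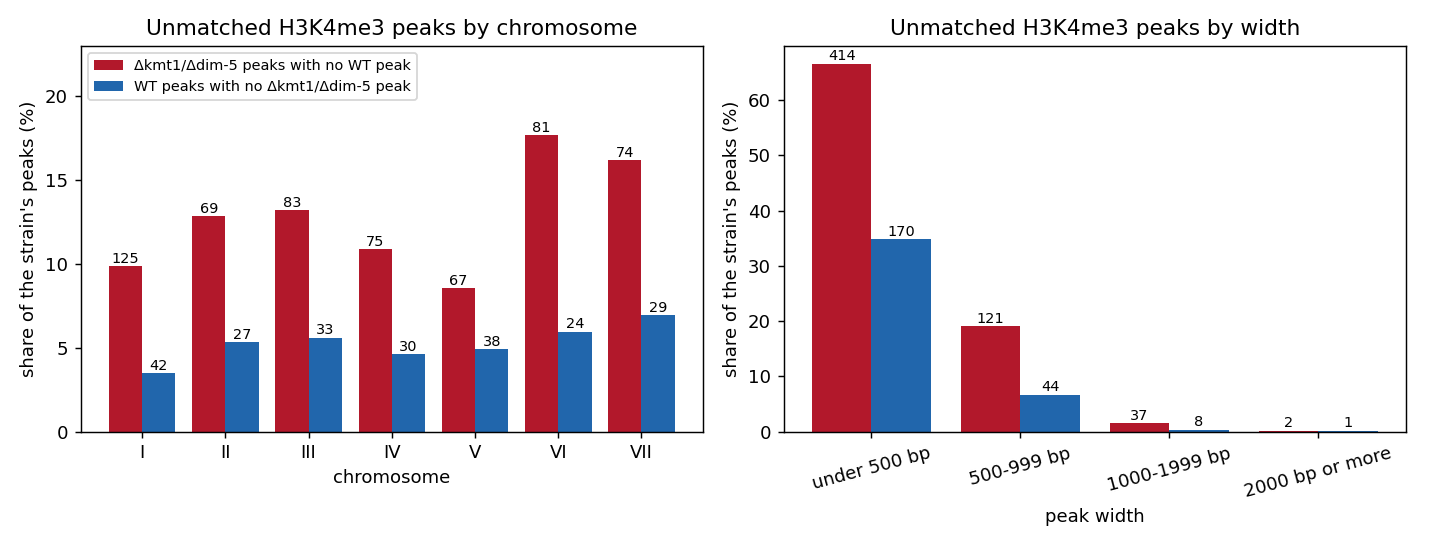
Share of each strain's LP30 H3K4me3 peaks without a counterpart in the other strain (y axis, percent), by chromosome (left) and by peak width (right), for Δkmt1/Δdim-5 (red) and WT (blue), with the number of peaks above each bar. Gains exceed losses on every chromosome, and nearly all unmatched peaks are under 1000 bp.

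The lost peak of highest fold enrichment lay over NCU16528 on chromosome II (1151944 to 1155095). It was 3152 bp wide in WT, with a fold enrichment of 3.92 and a pileup of 352 ChIP fragments over the summit (95% Poisson interval 316 to 391, counting error only), and the nearest Δkmt1/Δdim-5 peak was 24556 bp away. The WT list of the dark had a peak there as well, 3134 bp wide with a fold enrichment of 4.23, and the Δkmt1/Δdim-5 list of the dark had none. The WT peak overlapped an H3K9me3 peak of WT. The background pileup at its summit was 89.0, against a median of 235 over the WT list. The median ChIP pileup of that list was 404, above the 352 of this peak, so its high ratio rested on the low background. The copy number of this DNA in the mutant strains was not tested. Another of the 4 leading lost peaks (1.70, 646 bp) lay 71 bp from trx (NCU05731), by its symbol a thioredoxin gene, on chromosome III, with a Δkmt1/Δdim-5 peak 218 bp away. It was followed, by names chosen after the values were seen, by peaks over NCU08594 (1718 bp, 1.63) on chromosome I and NCU10430 (454 bp, 1.63) on chromosome II.

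The other 2 leading lost peaks and the gained peak of highest fold enrichment lay at 1 locus, NCU09969 on chromosome VI. Over NCU09968 and NCU09969, WT had a single peak of 8457 bp (309429 to 317885) with a fold enrichment of 89.7, the highest of the list, and beside it the lost peaks of 1093 bp (3.55) and 467 bp (2.41), which lay 192 bp and 411 bp from the nearest Δkmt1/Δdim-5 peak. With a limit of 500 bp, NCU16528 alone of the 4 leading lost peaks would thus still count as lost. In Δkmt1/Δdim-5 the same stretch held 7 short peaks of 255 to 1236 bp with fold enrichments of 1.93 to 7.85, and a gained peak of 236 bp (1.72) 217 bp from NCU09969. The ratios hide how few fragments were present. The ChIP pileup at the 7 mutant summits was 22 to 102, and the next lowest recovered pileup of the list was 113. The WT summit carried 427 fragments. The background pileup there was as low as 3.20 in the Δkmt1/Δdim-5 list and was 3.77 at the WT summit, against a median of 240 and 235 over the lists. Both the Δkmt1/Δdim-5 ChIP and the Δkmt2/Δset-1 background were thus nearly empty over this stretch, and a lower mark and fewer copies of this DNA in those strains cannot be told apart here. The WT H3K9me3 list, whose background is the H3K9me3 ChIP of Δkmt1/Δdim-5, has a peak of 12259 bp over it.

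The other gained peaks that lead by fold enrichment lay away from H3K9me3. NCU08565 on chromosome III had a peak of 974 bp (1.69) with 319 ChIP fragments over a background of 188, and 15485 bp separated it from the nearest WT H3K9me3 peak. A peak of 610 bp (1.67) lay 442 bp from pls-1 (NCU07432), by its symbol the homologue of a tetraspanin gene of the rice blast fungus, on chromosome I, and a peak of 744 bp (1.64) lay over NCU04518 on chromosome IV. All 4 leading gained peaks also had a peak in Δkmt1/Δdim-5 in the dark, with fold enrichments of 1.31 to 1.60, and the one near pls-1 had a WT peak of 222 bp in the dark as well. The longest gained peak, 2482 bp with a fold enrichment of 1.33, lay in an H3K9me3 domain of chromosome VI, 3707 bp from the nearest annotated gene, NCU03868. The next, 2163 bp over NCU08570 on chromosome III (1.59), overlapped an H3K9me3 peak of WT too.

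The dark lists carried many of the same differences, and they share the background with the LP30 lists. They did not stand on one scale, since the background pileup of the Δkmt1/Δdim-5 dark list was 1.09 times that of the WT dark list, against 0.999 in light, and the median difference in log2 fold enrichment was -0.096. Of the 574 gained peaks, 310 had a counterpart in Δkmt1/Δdim-5 in the dark and none in WT in the dark, 32 had both, 18 had a WT one alone and 214 had neither. Of the 223 lost peaks, 99 had a counterpart in WT in the dark and none in Δkmt1/Δdim-5 in the dark, 32 had both, 16 had a Δkmt1/Δdim-5 one alone and 76 had neither. By comparison, 98.8% of the matched Δkmt1/Δdim-5 peaks and 98.0% of the matched WT peaks were also present in the dark list of their own strain. The same match between the dark lists gave 564 peaks in Δkmt1/Δdim-5 alone and 202 in WT alone. Between light and dark within a strain, 283 peaks were found in light alone and 214 in dark alone in Δkmt1/Δdim-5, and 178 and 134 in WT.

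Unmatched peaks of either strain lay over H3K9me3 more often than matched peaks did. WT LP30 H3K9me3 peaks covered between 14.6% (chromosome I) and 21.2% (chromosome VII) of a chromosome, measured to its last peak. The gained share below is under this cover and the lost share close to its upper end, so it was matched peaks that were rare there. Of the gained peaks, 81 (14.1%) lay over a WT LP30 H3K9me3 peak, against 32 (0.754%) of the matched Δkmt1/Δdim-5 peaks. Of the lost peaks, 49 (22.0%) did so, against 28 (0.649%) of the matched WT peaks. The 49 include the peak at the deleted dim-5 gene and the lost peaks at NCU09969. The WT H3K9me3 list has the H3K9me3 ChIP of Δkmt1/Δdim-5 as its background. Where that strain lacks the DNA, as at dim-5, a lost peak and a WT H3K9me3 peak are therefore not independent. The median distance to the nearest H3K9me3 peak was 15385 bp for gained peaks and 32747 bp for matched Δkmt1/Δdim-5 peaks, and 5437 bp for lost peaks and 32682 bp for matched WT peaks. H3K4me3 peaks over H3K9me3 were therefore mostly private to 1 strain, 71.7% of those in Δkmt1/Δdim-5 being gained and 63.6% of those in WT being lost. More than 50 kb away these shares were 8.68% and 2.34%. Unmatched summits were also less often genic. The summit lay within an annotated gene for 74.2% of the gained peaks and 98.4% of the matched Δkmt1/Δdim-5 peaks, and for 71.7% of the lost peaks and 98.2% of the matched WT peaks. As sets, unmatched peaks were thus shorter, weaker and closer to H3K9me3 than matched peaks, and the separate parts of these traits were not tested. Among unmatched peaks, the ones with a q under 0.01 were not farther from H3K9me3. Their median distance was 12886 bp for gained and 4544.5 bp for lost peaks, and 12.9% and 25.5% of them lay over it.

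**Figure D2:**
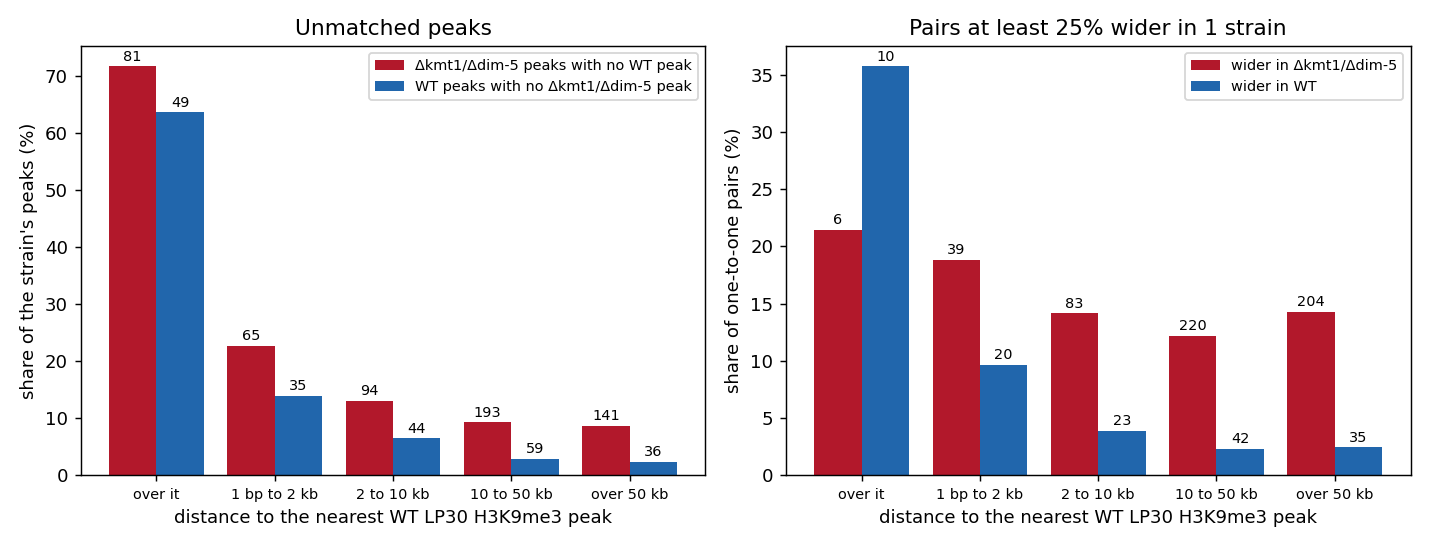
Left, share of each strain's H3K4me3 peaks without a counterpart (y axis, percent) by distance to the nearest WT LP30 H3K9me3 peak, for Δkmt1/Δdim-5 (red) and WT (blue). Right, share of one-to-one pairs at least 25% wider in Δkmt1/Δdim-5 (red) or in WT (blue) by the same distance, with numbers above the bars. Peaks over H3K9me3 are mostly unmatched in both strains, and there alone more pairs are wider in WT (10) than in Δkmt1/Δdim-5 (6).

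At 4050 places exactly 1 peak of each strain overlapped, and these one-to-one pairs show how peak shape differed. Peaks were slightly wider in Δkmt1/Δdim-5, with a median of 1539 bp against 1438 bp in WT, a median width ratio of 1.05 and 2946 pairs (72.7%) wider in Δkmt1/Δdim-5. In 552 pairs (13.6%) the peak was at least 25% wider in Δkmt1/Δdim-5, and in 130 pairs (3.21%) it was at least 25% wider in WT. In the dark, where the scales differed, these shares were 8.63% and 4.33%. Between light and dark in WT, 2.02% of the pairs were wider in light and 3.10% wider in dark. In Δkmt1/Δdim-5 these shares were 5.83% and 2.52%, so a lean to wider peaks in this light list also appeared without a change of strain. Scales differed here too. The background pileup in light was 0.970 times that in the dark in Δkmt1/Δdim-5 and 1.06 times in WT, and what this adds to the widths was not tested. The extension was mostly one-sided. In 456 of the 552 widened pairs (82.6%) a single edge lay 100 bp or more farther out in Δkmt1/Δdim-5, and in 76 both edges did. Of the 258 kb added in these pairs, 95.1% lay in annotated genes, as did 97.7% of the WT peaks they extend. Widened peaks were shorter than average, at a median of 1422 bp in Δkmt1/Δdim-5 and 945 bp in WT, and 355 of the 552 had the higher fold enrichment in Δkmt1/Δdim-5. Of the 130 pairs wider in WT, 23 did.

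Peak fusion went the same way. In 108 places 1 Δkmt1/Δdim-5 peak spanned 2 or 3 WT peaks, bridging gaps with a median of 114 bp, whereas in 36 places 1 WT peak spanned several Δkmt1/Δdim-5 peaks. In total, 917 kb were covered in Δkmt1/Δdim-5 alone, of which 656 kb belonged to matched peaks and 262 kb to gained ones, and 266 kb in WT alone, of which 173 kb belonged to matched peaks and 93.5 kb to lost ones. At the level of genes, 4391 of 10397 genes carried a peak in both strains, 311 in Δkmt1/Δdim-5 alone and 137 in WT alone. Where both had one, peaks covered a median of 60.8% of the gene in Δkmt1/Δdim-5 and 55.8% in WT.

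**Figure D3:**
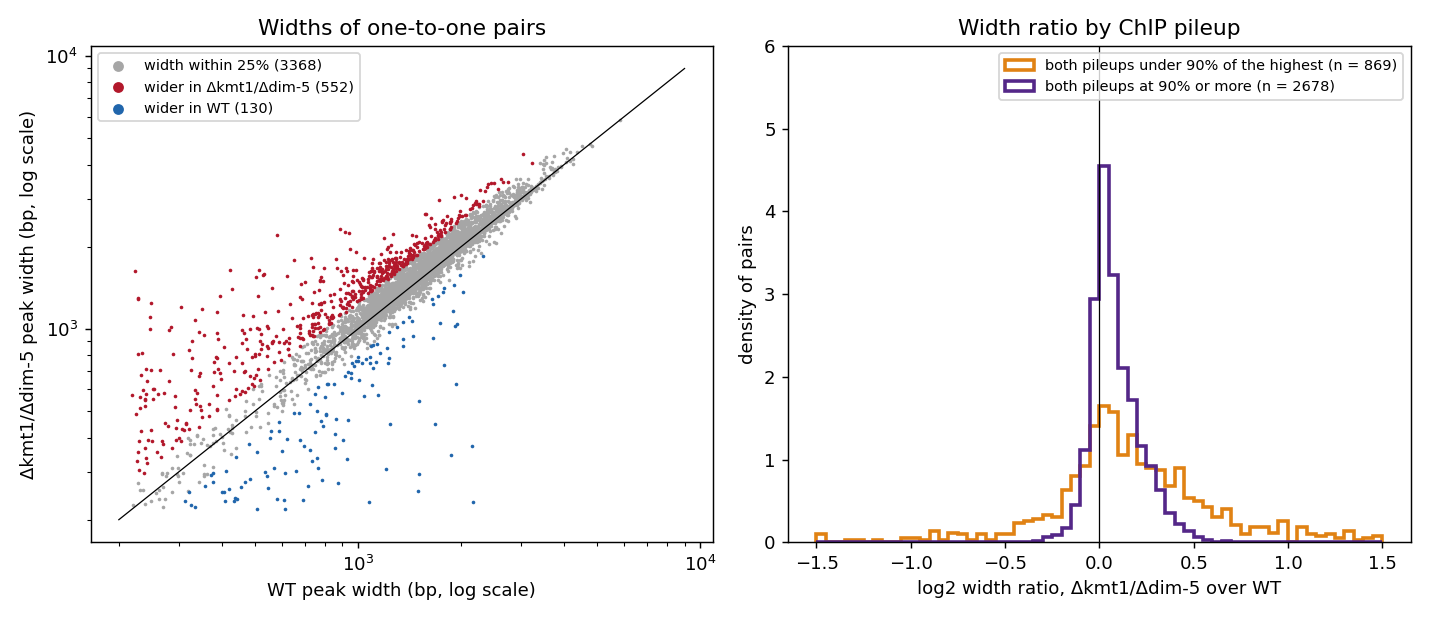
Left, width of the Δkmt1/Δdim-5 peak (y axis) against the WT peak (x axis) of each one-to-one pair, both in bp on log scales, with pairs at least 25% wider in Δkmt1/Δdim-5 in red (552) and in WT in blue (130). Right, density of the log2 width ratio, Δkmt1/Δdim-5 over WT, for pairs with both ChIP pileups under 90% of the highest of their list (orange, 869 pairs) or at 90% or more (purple, 2678 pairs). Of the first of these groups 30.8% are at least 25% wider in Δkmt1/Δdim-5 (268 pairs), and of the second 5.86% (157 pairs).

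The largest single widening among pairs with a q under 0.01 in both lists was at NCU00955 on chromosome I, where the peak was 1204 bp in Δkmt1/Δdim-5 and 303 bp in WT, a ratio of 3.97, with 352 and 316 ChIP fragments at the summit. It was followed by the pair NCU04494 and NCU04493 on chromosome IV (1651 bp in Δkmt1/Δdim-5, 423 bp in WT), NCU04118 on chromosome V (990 bp, 280 bp) and NCU00721 on chromosome I (814 bp, 234 bp). At sod-1 (NCU02133, superoxide dismutase, chosen after the values were seen) the peak was both wider and higher in Δkmt1/Δdim-5. It was 1573 bp with 388 fragments in Δkmt1/Δdim-5 and 527 bp with 233 fragments in WT, over backgrounds of 169 in both lists, which gave the largest positive difference in log2 fold enrichment of these pairs, 0.74.

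The largest narrowing was at NCU02433 and NCU02432 on chromosome VII, where the peak was 233 bp in Δkmt1/Δdim-5 and 2167 bp in WT, with fold enrichments of 1.24 and 1.63. It belongs to a run of lower peaks between 2483256 and 2523879 on that chromosome, a stretch chosen after the values were seen, which lies between H3K9me3 peaks of 203083 bp and 12066 bp and holds another of 11359 bp. Across it Δkmt1/Δdim-5 had 7 peaks covering 6.84 kb and WT had 10 covering 13.7 kb. At NCU02438 the peak was 1055 bp (1.18) in Δkmt1/Δdim-5 and 1737 bp (1.78) in WT, and at NCU02434 it was 373 bp (1.09) in Δkmt1/Δdim-5 and 2157 bp (1.76) in WT. The peaks of NCU14153, NCU02432 (551 bp, 1.54) and the smaller of 2 WT peaks over NCU02428 (328 bp, 1.63) were lost. Not every peak of the run was lower by much, since NCU11258 and NCU02437 shared a peak of 2072 bp (1.75) in Δkmt1/Δdim-5 and 2097 bp (1.79) in WT. The other leading narrowings were NCU09892 on chromosome I (449 bp in Δkmt1/Δdim-5, 1678 bp in WT), the pair NCU01296 and NCU01297 on chromosome V (543 bp, 1508 bp) and NCU05722 on chromosome III (309 bp, 765 bp). Chromosome VII had the highest share of pairs wider in WT, 7.22%, and chromosome VI the lowest, 1.13%.

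Pairs over H3K9me3 departed from the rest. For the 28 pairs overlapping a WT H3K9me3 peak the median difference in log2 fold enrichment, Δkmt1/Δdim-5 minus WT, was -0.18, and 22 of the 28 were lower in Δkmt1/Δdim-5. For the 16 that overlapped an H3K9me3 peak of 5 kb or more it was -0.25, the median width ratio was 0.791, and 9 were at least 25% wider in WT against 1 in Δkmt1/Δdim-5. Within 2 kb of H3K9me3 without overlap (207 pairs) the median difference was -0.012, and beyond it lay between -0.0018 and 0.0027. More than 50 kb from H3K9me3, 726 of 1427 pairs were lower in Δkmt1/Δdim-5. The number of pairs over H3K9me3 is small. The background of the WT H3K9me3 list is the H3K9me3 ChIP of Δkmt1/Δdim-5. Where that strain lacks the DNA, an overlap and a lower Δkmt1/Δdim-5 peak are therefore not independent.

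Summit positions differed at many genes. The median distance between the summits of a pair was 103 bp, and in 1195 pairs (29.5%) the summits were 200 bp or more apart. The same share was 22.5% between Δkmt1/Δdim-5 and WT in the dark, 25.2% between light and dark in Δkmt1/Δdim-5 and 20.1% between light and dark in WT, so much of the scatter appeared without a change of strain. It grew with width, with a median of 54 bp in pairs under 500 bp, 80 bp between 500 and 1000 bp, 102 bp between 1000 and 2000 bp and 151 bp in pairs of 2000 bp or more. The Δkmt1/Δdim-5 summit lay at the higher coordinate in 1993 pairs and at the lower one in 2031. Set against the genes, the larger shifts leaned one way. In 3907 pairs both summits lay in the same single gene, at a median of 731 bp from the nearer gene end in Δkmt1/Δdim-5 and 683 bp in WT. Where they were 200 bp or more apart, the Δkmt1/Δdim-5 summit lay farther inside the gene in 764 pairs and nearer the end in 378, which is 66.9% farther inside. In the dark this share was 68.7% (597 pairs against 272). Between light and dark the light summit lay farther inside in 54.5% of such pairs in Δkmt1/Δdim-5 and 54.9% in WT. Gene strand was not used, so the end may be the start or the finish of transcription.

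**Figure D4:**
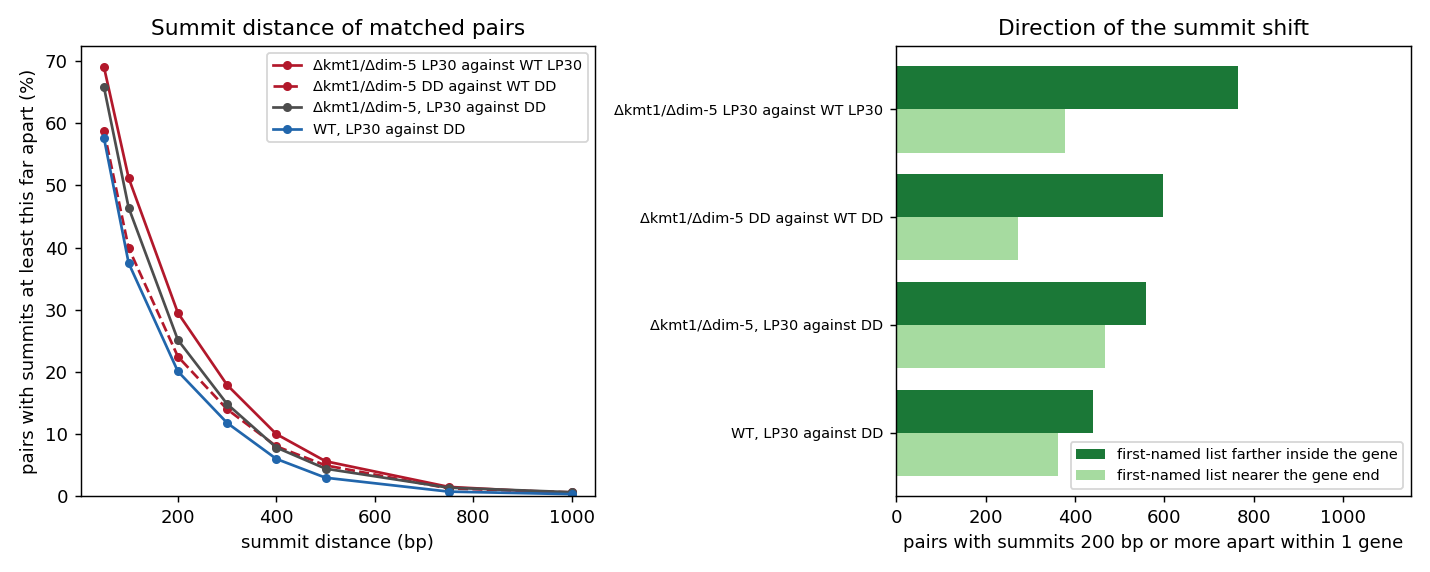
Left, share of matched pairs (y axis, percent) with summits at least the distance on the x axis (bp) apart, for 4 pairs of H3K4me3 lists. Right, number of pairs with summits 200 bp or more apart inside 1 gene, split by whether the first-named list has its summit farther inside the gene (dark green) or nearer the gene end (light green). Both comparisons of Δkmt1/Δdim-5 with WT lean to the inside, 764 against 378 in light, and both comparisons of light with dark are closer to even.

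The longest shifts were found in wide peaks over several genes. In the peak over NCU03009, NCU03008 and NCU03007 on chromosome I, 3903 bp in Δkmt1/Δdim-5 and 3679 bp in WT, the summits were 1960 bp apart although fold enrichment was 1.65 and 1.67. At NCU09449 on chromosome VII the distance was 1923 bp, with 2.24 in Δkmt1/Δdim-5 and 1.66 in WT. It was 1822 bp at NCU10028 and NCU10029 on chromosome I and 1775 bp at NCU04443 and NCU04442 on chromosome IV. The ChIP pileup of these 4 pairs was 410 to 428 in Δkmt1/Δdim-5 and 394 to 419 in WT, so both strains were close to the top of the scale at 2 different bases of the same peak.

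That scale had a ceiling. The highest ChIP pileup was 435 in Δkmt1/Δdim-5 and 431 in WT, just under 2 times the width of the narrowest peak, 436 and 434 bp, and the dark lists showed the same relation (441 under 444 and 429 under 432). In peak calling in general, when 1 read is kept per position and strand, no base can carry more fragments than 2 times the fragment length. How duplicate reads were treated is not given in the sources used here. At least 90% of the highest pileup was reached by 64.3% of the Δkmt1/Δdim-5 summits and 67.8% of the WT summits. In 2678 pairs both summits did so. Among these the SD of the log2 ChIP ratio was 0.026 and that of the log2 ratio of background pileups was 0.14, and across pairs the difference in log2 fold enrichment followed the background (Pearson's r = -0.98) and hardly the ChIP (r = 0.12). The points share both lists and the background, and r is given as a description. At rpn-5 (NCU02650, a proteasome lid subunit, chosen after the values were seen) fold enrichment was 2.20 in Δkmt1/Δdim-5 and 1.37 in WT with pileups of 420 and 417 over backgrounds of 191 and 305, the summits being 466 bp apart.

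**Figure D5:**
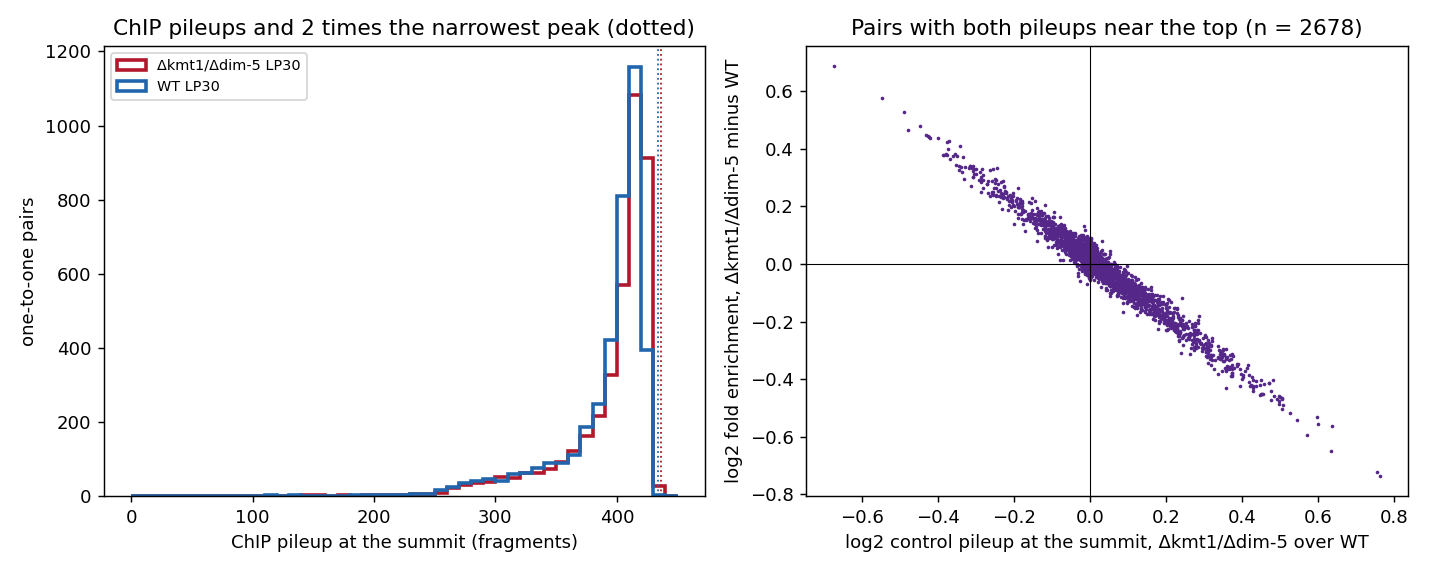
Left, ChIP pileup at the summit (x axis, fragments) of one-to-one pairs in Δkmt1/Δdim-5 (red) and WT (blue), with dotted lines at 2 times the narrowest peak of each list, 436 and 434. Right, difference in log2 fold enrichment (y axis) against the log2 ratio of background pileups at the summits (x axis), Δkmt1/Δdim-5 against WT, for the 2678 pairs with both pileups at 90% or more of the highest. Most summits crowd under the dotted lines, and there fold enrichment follows the background.

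The difference in log2 fold enrichment over all pairs had a median near 0, -0.00023, and an SD of 0.15 across pairs. Its spread was uneven, as 187 pairs were lower by 0.3 or more in Δkmt1/Δdim-5 and 89 were higher by as much. The 5% and 95% points were -0.29 and 0.22. In the 869 pairs below the ceiling in both strains, the median log2 ChIP ratio was 0.025, 528 pairs were higher in Δkmt1/Δdim-5 and 327 lower. The 2678 pairs near the ceiling leaned the same way, with a median of 0.017, 1926 pairs higher and 628 lower. The highest pileup itself was 435 in Δkmt1/Δdim-5 and 431 in WT. Whether the lean below the ceiling reflects the strains or the scales of the lists was not tested. In the 869 pairs below the ceiling the median width ratio was 1.10. Of these pairs, 30.8% were at least 25% wider in Δkmt1/Δdim-5 and 8.40% at least 25% wider in WT. In the 2678 pairs near the ceiling the ratio was 1.04, with 5.86% and 0.0747%. The peaks below the ceiling were also the shorter ones, with median widths of 1029 bp in Δkmt1/Δdim-5 and 920 bp in WT, against 1727 bp and 1613 bp near it, and in base pairs the median difference was 94 bp below and 67.5 bp near the ceiling. Summit shifts occurred on both sides of the ceiling, in 24.7% of the pairs below it and 31.9% of those near it, and they leaned to the inside of genes in both, 145 against 55 pairs below and 545 against 281 near it.

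Among 16 genes of the light response, 9 carried a peak in both strains, 1 in Δkmt1/Δdim-5 alone, 1 in WT alone and 5 in neither (con-6, con-10, bli-4, ccg-1 and eas). Of the 9, the summed width of the overlapping peaks was at least 25% larger in Δkmt1/Δdim-5 at 4 and in WT at 1, and fold enrichment was higher in Δkmt1/Δdim-5 at 7. Over the 4391 genes with peaks in both strains, 14.7% were wider in Δkmt1/Δdim-5, 3.69% wider in WT and 49.9% had the higher fold enrichment in Δkmt1/Δdim-5. When the peaks that these overlap outside the gene were added, a count chosen after the data were seen, 3 of the 9 were wider in Δkmt1/Δdim-5 (frq, vvd and al-3), 0 were wider in WT and 8 had the higher fold enrichment, against 13.8%, 3.19% and 49.8% of all genes. These 3 genes rest on weak peaks, as 2 of the 3 frq peaks and the vvd peak in Δkmt1/Δdim-5 and the al-3 peak in WT had a q that was not under 0.01. The median difference in log2 fold enrichment was 0.10 for the light genes and -0.00031 for all genes. At frq (NCU02265), the clock gene, Δkmt1/Δdim-5 had 3 peaks summing to 1368 bp with fold enrichments of 1.09 to 1.34, and WT had 1 of 325 bp (1.21). At vvd (NCU03967), the blue-light photoreceptor of photoadaptation, the peak was 825 bp (1.15) in Δkmt1/Δdim-5 and 586 bp (1.20) in WT. Among the carotenoid genes, al-3 (NCU01427) had 906 bp (1.35) in Δkmt1/Δdim-5 and 518 bp (1.18) in WT. At al-2 (NCU00585) 2 peaks of Δkmt1/Δdim-5 (1.23 and 1.33) faced 1 of WT (1.24), and at al-1 (NCU00552) the WT peak of 414 bp (1.24) was lost. The cryptochrome gene cry (NCU00582) gained a peak of 462 bp (1.13) whose q was not under 0.01. At the photolyase gene phr (NCU08626) a peak of 2112 bp (1.78) in Δkmt1/Δdim-5, with its summit outside the gene, faced one of 483 bp (1.29) in WT, but it spanned a second WT peak outside the gene as well, and both WT peaks together came to 1771 bp with a fold enrichment of up to 1.75. The transcription factor genes differed little in width, with 2348 bp (1.47) in Δkmt1/Δdim-5 and 2213 bp (1.41) in WT at wc-1, 2598 bp (1.78) and 2541 bp (1.62) at wc-2, and 2566 bp (1.57) and 2456 bp (1.48) at sub-1. The ChIP pileups of wc-2 and of sub-1 (419 in Δkmt1/Δdim-5, 420 in WT) were near the ceiling in both strains, where fold enrichment follows the background. At bli-3 (NCU07267) the peak over the gene was 792 bp (1.36) in Δkmt1/Δdim-5 and 1517 bp (1.38) in WT, and with the peaks these meet outside the gene the widths were 1884 bp and 2107 bp.

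The study also described frq, vvd, NCU09968 and NCU09969, which are treated above. Of 7 other loci that it described, 4 carried a peak in both strains, and fold enrichment was lower in Δkmt1/Δdim-5 at all 4. This count leaves out frq, where it was higher (1.34 against 1.21 in WT), and vvd, where it was lower (1.15 against 1.20). Over the 4391 genes with peaks in both strains, 49.9% had the higher fold enrichment in Δkmt1/Δdim-5. NCU10058, NCU10059 and NCU16377 are neighbours on chromosome I, so the 4 loci are not 4 separate places. The loci were chosen by the study on these samples and are not independent evidence of a direction. At NCU10058 on chromosome I, which lies between H3K9me3 peaks of 8772 bp and 15341 bp, the stronger peak was 1044 bp with 283 fragments (1.33) in Δkmt1/Δdim-5 and 1945 bp with 418 fragments (2.00) in WT, over backgrounds of 213 and 208. Fold enrichment was lower as well at its neighbours NCU10059 (310 bp, 1.17 in Δkmt1/Δdim-5 and 567 bp, 1.43 in WT) and NCU16377 (568 bp, 1.21 and 438 bp, 1.31). The q of both these Δkmt1/Δdim-5 peaks was not under 0.01. The peak of NCU16377 was wider in Δkmt1/Δdim-5 and is also the weaker peak over NCU10058. NCU03747 was nearly equal, 1244 bp (1.36) in Δkmt1/Δdim-5 and 1278 bp (1.40) in WT. NCU16528 was lost, NCU16472 gained a peak of 610 bp (1.28) and NCU02913 had none in either strain.

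Of 11 genes of the heterochromatin machinery, 7 had a peak in both strains and 4 in neither (dim-2, which encodes the DNA methyltransferase, set-7, which encodes the H3K27 methyltransferase, NCU05300 and NCU05460). At hpo, which encodes HP1, the peak was 1686 bp (1.73) in Δkmt1/Δdim-5 and 1589 bp (1.65) in WT. For the DIM-5 complex, dim-7 had fold enrichments of up to 2.00 in Δkmt1/Δdim-5 and 1.89 in WT, and cul-4 had 1.64 and 1.51. The ChIP pileups of hpo (414 in Δkmt1/Δdim-5, 413 in WT), dim-7 (413, 406) and cul-4 (418, 410) were near the ceiling, where fold enrichment follows the background. At dim-8 fold enrichment was 1.54 in Δkmt1/Δdim-5 and 1.89 in WT, a log2 difference of -0.29, with ChIP pileups of 412 and 410 near the ceiling. The widest difference was at dim-9, 2223 bp (1.31) in Δkmt1/Δdim-5 and 1266 bp (1.22) in WT, the only one of the 7 past the 25% limit, which 14.7% of all genes passed. At dmm-1 and at set-2, the H3K36 methyltransferase gene, the width ratios were 0.975 and 1.16. All 6 housekeeping genes had peaks in both strains. The widths of act, Bml (β-tubulin), gpd-1, hH3 and hH4-1 were 1.03 to 1.09 times those in WT, and tef-1 alone passed the limit, with 1636 bp (1.16, q not under 0.01) in Δkmt1/Δdim-5 and 223 bp (1.28) in WT. Bml had the largest difference in fold enrichment of these 6, 1.57 in Δkmt1/Δdim-5 and 2.06 in WT, with ChIP pileups of 421 and 411, both near the ceiling.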

How the data were processed

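Crosslinked mycelia of N. crassa were immunoprecipitated by the authors and sequenced as single-end reads, which they mapped to NC12 with BWA. The authors called narrow H3K4me3 peaks with MACS2 at a p cutoff of 0.1, pooled 2 samples a list, and deposited for each peak the fold enrichment (a ratio of ChIP to background), -log10 of the p-value and of the q-value, and the summit. WT H3K9me3 lists were broad calls, whose deposited ratio is a mean over the peak. From these, peaks on 7 chromosomes were matched at 1 bp, and ChIP and background pileups were solved from the fold, (ChIP + 1)/(background + 1), and the Poisson p-value. Pileups within 0.02 of a whole number were kept (95.6% of Δkmt1/Δdim-5 and 95.9% of WT peaks). Code was tested on simulated peaks (Python 3.11.15, pandas 2.3.3, scipy 1.17.1).

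The genes named are those at the 4 lost and 4 gained peaks of highest fold enrichment with a q under 0.01, at the 4 pairs with the largest width ratio each way and with the longest summit distance, and of fixed lists. The members and lists were chosen with earlier results of these data known. All 42 listed genes matched the RefSeq table (NC12), which was used without strand. No sequence is shown. Of 8 peak lists, 6 were used, and Δkmt2/Δset-1 H3K9me3 was left out. Read totals are not in the peak lists, so depth is known only through the pileups. Alternatives were other q, fold, overlap, width and distance limits.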

Additional observations from a re-analysis of the deposited data

How the results depend on the processing

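No paired analysis was possible because each list pools its 2 samples, and for the same reason no sample could be left out in turn. Of 41 recomputed values, 26 stayed close (counts, widths and distances within 1.5 times) and 15 moved by more. The median difference in log2 fold enrichment stayed around 0, between -0.00082 and 0.0034. Its alternative without the local background, the log2 ratio of ChIP pileups divided by the background ratio of the lists, had a median of 0.019. No other value changed sign. Once peaks under 1.5 in fold enrichment were dropped from each list, gained peaks numbered 285 and lost peaks 335, so losses then exceeded gains, and 238 pairs were at least 25% wider in Δkmt1/Δdim-5 and 27 in WT. This limit also removes the partner of a peak when it falls under 1.5. With a q under 0.01 in the list that holds the peak, 272 were gained and 102 lost, of which 35 gained peaks lay over H3K9me3, 198 gained peaks had a Δkmt1/Δdim-5 dark peak and 70 lost peaks a WT dark peak. With a q under 0.01 in both lists, 81 pairs were wider in WT. At a width ratio of 1.5, 192 pairs were wider in Δkmt1/Δdim-5 and 71 in WT. At 100 bp 2074 pairs and at 500 bp 228 pairs counted as shifted. Chosen after the data were seen, the pairs under 90% of the highest pileup gave a median log2 width ratio of 0.14, against 0.069 over all pairs, and leaving out the stretch of chromosome VI with few background fragments gave 573 gained and 221 lost. Of 22 counts by chromosome and width class, 17 moved by more than 1.5 times, all downwards, with a q under 0.01. The ceiling of the pileup limits what fold enrichment can show at strong peaks.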

Other observations

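Beyond the 7 chromosomes, 3 Δkmt1/Δdim-5 and 7 WT LP30 peaks lay on smaller contigs, and 8 Δkmt1/Δdim-5 and 3 WT peaks did so in the dark. On chromosome VII a second run next to an H3K9me3 peak of 29356 bp, chosen after the values were seen, held 3 Δkmt1/Δdim-5 peaks covering 2.91 kb and 5 WT peaks covering 5.29 kb. At NCU02459 the peak was 367 bp with 286 ChIP fragments (fold enrichment 1.35) in Δkmt1/Δdim-5 and 855 bp with 391 (1.97) in WT, and those of NCU02458 (721 bp, 1.32) and NCU02457 (398 bp, 1.30) were lost. Apart from chromosome VI and set-1, few summits lay over a background pileup under 100. In Δkmt1/Δdim-5 7 such peaks remained, 4 of them near NCU05437 and NCU14131 on chromosome II with fold enrichments of 1.33 to 1.59. In WT 5 remained, among them the lost peak over NCU16528.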
